A study of Mus musculus with 15 samples.

Results

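The genes described here are 9 marker genes of striatal projection neurons, the spiny GABAergic neurons that make up most of the striatum: Drd1, Drd2, Adora2a, Ppp1r1b, Tac1, Penk, Pdyn, Rgs9 and Gpr6. They were chosen by symbol from the 33321 entries of the count table, and each of the 9 was found on 1 row and passed the filter on low counts, which left 16795 genes for testing. The study sequenced bulk RNA of mouse corpus callosum in 5 groups with 3 libraries each, 15 in all. LPC-Ipsil is tissue injured by lysophosphatidylcholine (LPC), a lipid that strips myelin, and LPC-Contra is the tissue on the opposite side. LNIO-Ipsil is tissue injured by L-NIO, an inhibitor of nitric oxide synthase used to produce focal ischaemia, and LNIO-Contra is the tissue opposite to it. These were taken 4 days after injury, and Sham-Ipsil is the site injected with saline in sham-operated mice, for which the labels name no day. The labels give no strain, sex or age, and do not tell if the replicate libraries stem from different mice, so p-values measure the spread between these libraries, which may be technical.

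The corpus callosum is a white matter tract that lies between the cortex above it and the striatum and septum below it, and its resident cells are mainly oligodendrocytes, astrocytes and microglia. Striatal projection neurons fall into a direct and an indirect pathway. Direct-pathway neurons carry the D1 dopamine receptor and make substance P and dynorphin. Indirect-pathway neurons carry the D2 dopamine receptor and the adenosine receptor Adora2a and make enkephalin. In both, dopamine and adenosine act on cyclic AMP and protein kinase A, whose target DARPP-32 inhibits a protein phosphatase, and protein kinase A also phosphorylates CREB, a transcription factor that binds the cyclic AMP response element (CRE).

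Library totals ran from 14896445 to 20916606 counts, and the share of mitochondrially encoded reads from 8.74% to 15.9%, highest in LNIO-Ipsil 1 and next highest in LNIO-Contra 1 (13.7%). The defining genes of the labelled tissue were abundant, since 12 myelin genes together took 16706 to 32772 CPM (read counts scaled to library size with the trimmed mean of M-values) over the libraries. Injury was visible in 10 damage-associated microglial genes, whose summed level was 5396 and 3378 CPM in LPC-Ipsil libraries 1 and 2 and 1061 CPM in LPC-Ipsil 3, against 983 to 1006 CPM in Sham-Ipsil libraries. LPC-Ipsil 3 thus stood apart from the other 2 LPC-Ipsil libraries and next to the sham libraries, and the comparisons that use LPC-Ipsil are given below with and without it.

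The promoters of Gpr6, Tac1, Drd1 and Drd2 are shown because the first 3 of these genes are the members that passed a test between the sides of the L-NIO model when libraries were paired by number, and Drd2 is the indirect-pathway counterpart of Drd1. Each window runs from 250 bases before to 50 bases after a transcription start in RefSeq (build GRCm38.p6, while the deposited files use GRCm39), 5′ to 3′ in the direction of the gene. The windows are chr10:41072241-41072540 on the minus strand for Gpr6, chr6:7554811-7555110 on the plus strand for Tac1, chr13:54055609-54055908 on the minus strand for Drd1 and chr9:49340153-49340452 on the plus strand for Drd2. For Drd1 the first of 2 listed starts was taken. Capitals mark the CRE TGACGTCA, its half-site TGACG or CGTCA, and the GC box GGGCGG or CCGCCC, each searched on both strands, and a CRE holds 2 overlapping half-sites.
Gpr6: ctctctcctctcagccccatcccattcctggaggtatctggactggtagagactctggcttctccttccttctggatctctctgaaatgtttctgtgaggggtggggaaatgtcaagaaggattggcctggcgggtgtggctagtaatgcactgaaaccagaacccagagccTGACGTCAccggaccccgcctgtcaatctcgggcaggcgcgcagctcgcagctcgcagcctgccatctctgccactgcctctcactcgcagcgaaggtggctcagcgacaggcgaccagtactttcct
Tac1: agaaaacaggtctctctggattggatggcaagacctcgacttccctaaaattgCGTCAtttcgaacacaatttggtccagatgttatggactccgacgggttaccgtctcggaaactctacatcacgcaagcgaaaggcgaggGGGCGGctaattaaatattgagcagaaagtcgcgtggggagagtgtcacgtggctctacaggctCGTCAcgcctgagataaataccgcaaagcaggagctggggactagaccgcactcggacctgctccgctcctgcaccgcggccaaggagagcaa
Drd1: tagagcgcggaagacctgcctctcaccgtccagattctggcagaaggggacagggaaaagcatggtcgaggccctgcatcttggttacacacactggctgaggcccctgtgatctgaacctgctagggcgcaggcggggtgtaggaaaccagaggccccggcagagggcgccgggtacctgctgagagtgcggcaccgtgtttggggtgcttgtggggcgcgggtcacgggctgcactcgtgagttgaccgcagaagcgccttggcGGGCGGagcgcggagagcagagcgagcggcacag
Drd2: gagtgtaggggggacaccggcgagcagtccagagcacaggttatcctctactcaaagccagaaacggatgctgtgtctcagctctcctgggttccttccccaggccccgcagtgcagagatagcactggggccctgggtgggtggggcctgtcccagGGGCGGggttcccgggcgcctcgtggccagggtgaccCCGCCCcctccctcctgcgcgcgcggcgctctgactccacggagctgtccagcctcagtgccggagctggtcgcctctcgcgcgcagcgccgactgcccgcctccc
Windows were found for 6 of the 9 genes, not for Adora2a, Ppp1r1b and Penk. The Gpr6 window held a full CRE from -78 to -71 relative to the start, a motif present in 588 of 32851 mouse promoter windows of this length (1.79%). The Tac1 window held half-sites beginning at -197 and -43, a motif in 20.8% of windows, and a GC box beginning at -107. GC boxes, present in 35.7% of windows, began at -93 and -56 in the Drd2 window and at +17 in the Drd1 window. These matches describe the letters only and say nothing of binding.

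All 9 genes were read deeply in all libraries, with a lowest count of 74 (Gpr6 in Sham-Ipsil 1). Per length, from the deposited FPKM values (fragments scaled by gene length and library size), their median levels over 15 libraries ran from 177 for Penk, the enkephalin precursor, and 104 for Ppp1r1b, which encodes DARPP-32, down to 7.03 for Pdyn, the dynorphin precursor. Between them lay Adora2a at 28.8, Rgs9 at 25.8, Drd2 at 18.1, Drd1 at 17.6, Tac1 at 12.3 and Gpr6 at 8.47 FPKM. The dopamine receptors Drd2 and Drd1 were thus adjacent in the order and their library ranges overlapped (3.37 to 35.5 and 5.36 to 30.6 FPKM).

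The 2 dopamine receptors spanned 4.57-fold (Drd1) and 8.93-fold (Drd2) within the Sham-Ipsil group alone. Drd1 reached 69.7, 94.8 and 67.7 CPM in LPC-Ipsil libraries 1 to 3 and 119.6, 110.3 and 63.6 CPM in LPC-Contra libraries. The LNIO-Ipsil libraries held 23.7, 65 and 40.2 CPM and the LNIO-Contra libraries 50.9, 106 and 72.5 CPM, against 20.5, 66.6 and 93.6 CPM in the Sham-Ipsil libraries. Drd1, the D1 receptor of the direct pathway, was thus lowest in Sham-Ipsil 1 and next lowest in LNIO-Ipsil 1, and highest in LPC-Contra 1. Drd2 stood at 69.7, 71.7 and 43.4 CPM in LPC-Ipsil libraries 1 to 3 and 97.5, 83.4 and 50.7 CPM in LPC-Contra libraries. In the L-NIO model the values were 9.35, 57.5 and 23.6 CPM in LNIO-Ipsil and 35.8, 75.4 and 40.0 CPM in LNIO-Contra, against 9.08, 46.4 and 81.1 CPM in Sham-Ipsil. In Drd2, the D2 receptor of the indirect pathway, the span of the sham libraries took in all 6 libraries of injured tissue.

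The receptors Adora2a and Gpr6 mark the indirect pathway as well. Adora2a gave 111, 131 and 70.3 CPM in LPC-Ipsil libraries 1 to 3 and 158, 167 and 96.8 CPM in LPC-Contra libraries. Its level was 19.6, 93.6 and 38.3 CPM in LNIO-Ipsil libraries and 67.6, 123 and 77.1 CPM in LNIO-Contra libraries, against 14.8, 85.9 and 145 CPM in Sham-Ipsil libraries. Adora2a encodes the adenosine receptor that raises cyclic AMP in these neurons, and its span of 9.78-fold within Sham-Ipsil was the widest of the 9 genes in that group. Gpr6 had 16.7, 23.5 and 12.2 CPM in LPC-Ipsil libraries 1 to 3 and 29.3, 33.7 and 13.9 CPM in LPC-Contra libraries. The LNIO-Ipsil libraries held 5.62, 16.2 and 8.67 CPM and the LNIO-Contra libraries 16.8, 26 and 15.4 CPM, against 4.42, 14.4 and 24.4 CPM in the Sham-Ipsil libraries. Gpr6, an orphan receptor coupled to cyclic AMP production, was lowest in Sham-Ipsil 1 and LNIO-Ipsil 1 and highest in LPC-Contra 2.

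The signalling proteins Ppp1r1b and Rgs9 are shared by both pathways. Ppp1r1b measured 360.3, 379 and 284 CPM in LPC-Ipsil libraries 1 to 3 and 472, 609 and 333 CPM in LPC-Contra libraries. In the L-NIO model the values were 109.7, 351 and 150.5 CPM in LNIO-Ipsil and 318, 431 and 296 CPM in LNIO-Contra, against 77.4, 301 and 445 CPM in Sham-Ipsil. Ppp1r1b, whose product DARPP-32 is the standard marker of these neurons, was above the sham range in LPC-Contra 1 and 2 and within it in every library of injured tissue. Rgs9 amounted to 219, 268 and 167 CPM in LPC-Ipsil libraries 1 to 3 and 360.4, 301 and 181 CPM in LPC-Contra libraries. Its level was 47.8, 199 and 112 CPM in LNIO-Ipsil libraries and 149, 297 and 153 CPM in LNIO-Contra libraries, against 53.2, 174 and 281 CPM in Sham-Ipsil libraries. Rgs9, a regulator that shortens G protein signalling downstream of dopamine and opioid receptors, was the one member whose lowest library was LNIO-Ipsil 1 and not Sham-Ipsil 1.

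The peptide precursors varied between libraries too, Pdyn least. Tac1 came to 56.6, 59.2 and 41.4 CPM in LPC-Ipsil libraries 1 to 3 and 69.6, 95.9 and 45.9 CPM in LPC-Contra libraries. The LNIO-Ipsil libraries held 21, 41.2 and 31.4 CPM and the LNIO-Contra libraries 45.4, 61.1 and 57 CPM, against 17, 42.4 and 60.6 CPM in the Sham-Ipsil libraries. Tac1 encodes the precursor of substance P and neurokinin A, and its LNIO-Ipsil libraries lay below all LNIO-Contra libraries. Penk totalled 365, 397 and 217 CPM in LPC-Ipsil libraries 1 to 3 and 479, 642 and 289 CPM in LPC-Contra libraries. In the L-NIO model the values were 92.8, 285 and 159.9 CPM in LNIO-Ipsil and 321, 405 and 317 CPM in LNIO-Contra, against 68.9, 289.6 and 459.7 CPM in Sham-Ipsil. Penk spanned 6.67-fold within Sham-Ipsil and 1.28-fold within LNIO-Contra. Pdyn showed 26.2, 35.9 and 21.2 CPM in LPC-Ipsil libraries 1 to 3 and 35.4, 39.7 and 20.1 CPM in LPC-Contra libraries. Its level was 13.6, 17.3 and 18.1 CPM in LNIO-Ipsil libraries and 13.5, 27.1 and 25.1 CPM in LNIO-Contra libraries, against 10.6, 18.9 and 22.6 CPM in Sham-Ipsil libraries. Pdyn had the narrowest span of the 9 genes, 3.73-fold over all libraries against 11.3-fold for Adora2a.

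**Figure D1:**
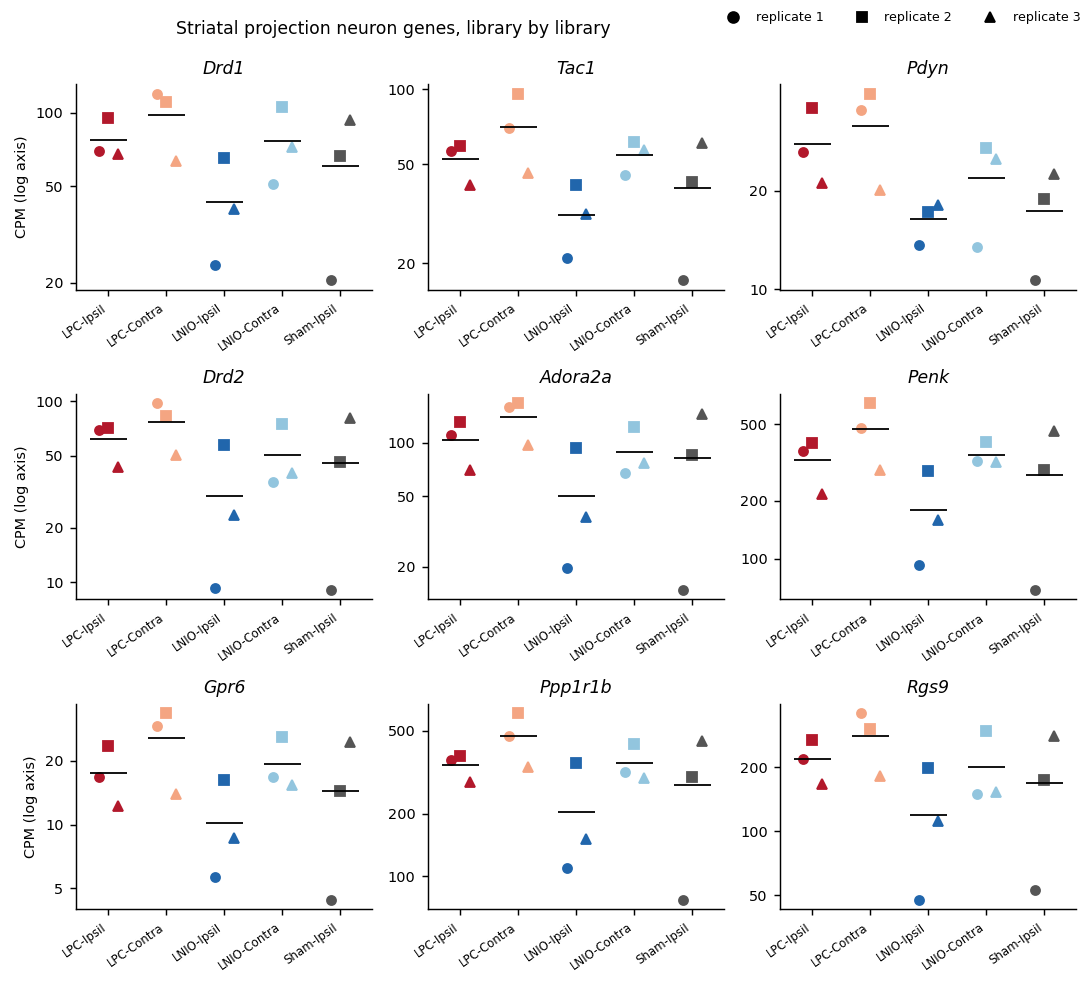
Level of each of the 9 genes in CPM (log axis) in each library, with groups along the horizontal axis, 1 symbol per replicate number and a black line at the mean of the 3 libraries. Sham-Ipsil 1 and LNIO-Ipsil 1 sit at the bottom of nearly every panel and LPC-Contra 1 and 2 at the top; Drd1, for example, runs from 20.5 CPM in Sham-Ipsil 1 to 119.6 CPM in LPC-Contra 1.

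Sums over the 9 genes weigh the abundant Penk, Ppp1r1b and Rgs9 most. The sum was 1293, 1461 and 925 CPM in LPC-Ipsil libraries and 1821, 2083 and 1095 CPM in LPC-Contra libraries. It was 343, 1126 and 583 CPM in LNIO-Ipsil libraries and 1018, 1551 and 1052 CPM in LNIO-Contra libraries, against 276, 1039 and 1612 CPM in Sham-Ipsil libraries. For the sum, all 6 libraries of injured tissue fell within the range of the 3 sham libraries, and LPC-Contra 1 and 2 were the only contralateral libraries above it. Gene by gene, Drd1 had 1 injured library above the sham range, Pdyn had 2 above and Rgs9 had 1 below. In the other genes all 6 lay within it. Contralateral libraries above the range numbered from 2, as in Drd2, to 4 in Pdyn. Sham-Ipsil 1 was the lowest library for 8 of the 9 genes, and LPC-Contra 2 was among the highest 2 libraries for all 9.

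LPC-Contra had the highest mean and LNIO-Ipsil the lowest mean of the 5 groups for all 9 genes, with LPC-Ipsil, LNIO-Contra and Sham-Ipsil between. For Drd1 the means were 77.4 ± 15.1 CPM in LPC-Ipsil, 97.8 ± 30.0 CPM in LPC-Contra, 42.9 ± 20.8 CPM in LNIO-Ipsil, 76.4 ± 27.6 CPM in LNIO-Contra and 60.2 ± 37 CPM in Sham-Ipsil (SD, n = 3 each). Penk, the most abundant member per length, averaged 326 ± 95.9 CPM in LPC-Ipsil, 469.9 ± 176 CPM in LPC-Contra, 179 ± 97.4 CPM in LNIO-Ipsil, 347 ± 49.9 CPM in LNIO-Contra and 273 ± 196 CPM in Sham-Ipsil (SD, n = 3 each). With the 5 means of each gene sorted by size, no gap between neighbours (36 pairs, 4 per gene) exceeded the larger SD of the pair. Neighbours in such an order are the closest means, so this says nothing of means further apart. For Drd1 and Penk, the means of LPC-Contra and LNIO-Ipsil differed by more than the larger SD. On the log2 scale the SD within groups was 0.47 (Pdyn) to 1.01 (Drd2) for the 9 genes, while the median over all tested genes was 0.25.

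Against Sham-Ipsil, none of the 9 genes passed the test in tissue of the LPC model. In LPC-Ipsil minus Sham-Ipsil, 0 of 9 passed edgeR's quasi-likelihood test (Benjamini-Hochberg adjusted p under 0.05 over all tested genes), where 5.19% of all tested genes passed (871 genes). All 9 log2 fold changes were above 0, with a median of 0.36 beside 0.01 over all tested genes, and in all 9 the libraries of the groups overlapped, while 27.5% of all tested genes did not overlap. Pdyn had the largest, 0.68 ± 0.32 (SE; 95% interval -0.02 to 1.37; adjusted p = 0.263), while Drd1 had 0.36 ± 0.49 (SE; 95% interval -0.69 to 1.41; adjusted p = 0.745). The median was 0.52 without LPC-Ipsil 3, 0.19 without LPC-Ipsil 2 and 0.85 without Sham-Ipsil 3, and it was -0.06, with 2 of 9 genes above 0, without Sham-Ipsil 1. In LPC-Contra minus Sham-Ipsil, 0 of 9 passed and 0.00595% of all tested genes did (1 gene); the median was 0.78, and 0 of 9 did not overlap, beside 15.1% of all tested genes. Pdyn there had 0.87 ± 0.33 (SE; 95% interval 0.17 to 1.57; adjusted p = 0.496), with an unadjusted p of 0.0183 from edgeR. The number of all tested genes with an unadjusted p under 0.05 in that comparison is not given here. That median was 0.33 without Sham-Ipsil 1 and 1.31 without Sham-Ipsil 3.

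Tissue of the L-NIO model gave no call against Sham-Ipsil either. In LNIO-Ipsil minus Sham-Ipsil, 0 of 9 genes and 0% of all tested genes passed edgeR's test, while 1489 tested genes and 0 of the 9 had an unadjusted p under 0.05. The log2 fold changes ran from -0.70 (Adora2a) to -0.09 (Pdyn), with a median of -0.50, and 0 of 9 did not overlap, beside 17.9% of all tested genes. For Adora2a the 95% interval was -2.16 to 0.76 and for Pdyn -0.79 to 0.61, so these data are compatible with changes of either sign within those bounds. Without Sham-Ipsil 3 the median was 0.06, without Sham-Ipsil 1 it was -0.92, without LNIO-Ipsil 1 it was -0.16 and without LNIO-Ipsil 2 it was -1.06. In LNIO-Contra minus Sham-Ipsil, 0 of 9 genes and 0% of all tested genes passed (457 tested genes and 0 of the 9 at an unadjusted p under 0.05), and 0 of 9 did not overlap, beside 10.1% of all tested genes. The median of 0.34 became -0.10 without Sham-Ipsil 1, 0.88 without Sham-Ipsil 3 and 0.15 without LNIO-Contra 2. These comparisons share the 3 sham libraries, whose own sums span 276 to 1612 CPM. With DESeq2 in place of edgeR, 0 of the 9 genes passed in each of the comparisons with Sham-Ipsil. The share of all tested genes passing with DESeq2 is not given here.

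**Figure D2:**
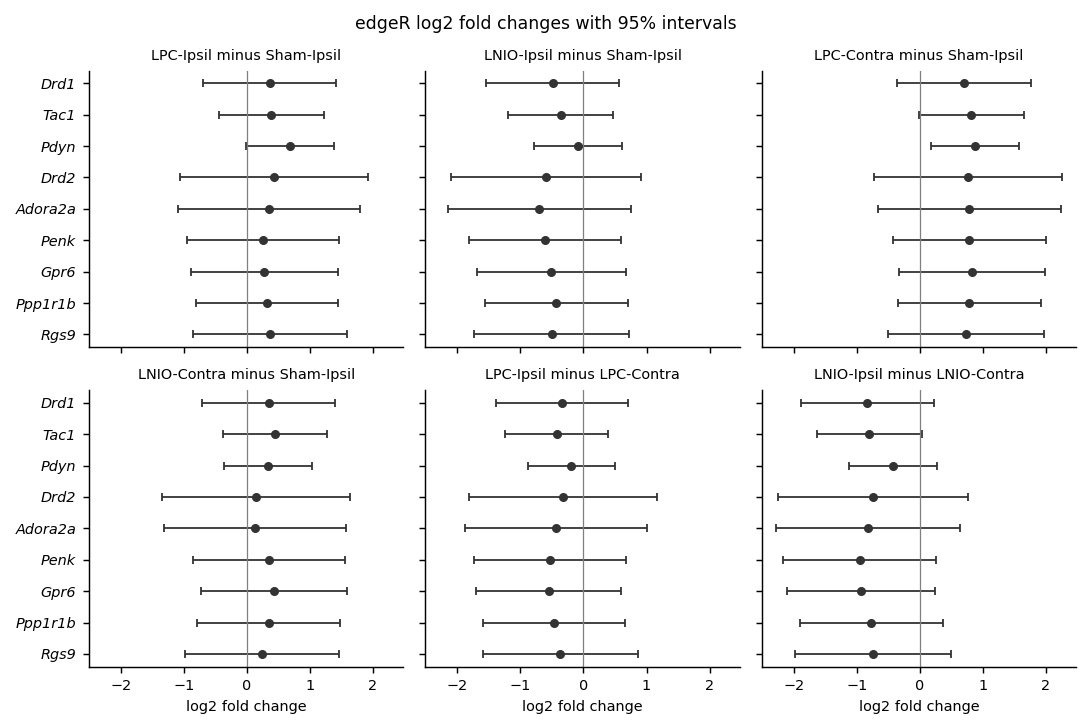
edgeR log2 fold change of each gene (horizontal axis) in 6 comparisons, with points for the estimate and bars for the 95% interval. All points lie right of 0 in LPC-Ipsil, LPC-Contra and LNIO-Contra minus Sham-Ipsil and left of 0 in the other 3 panels, and all but 1 of the bars (Pdyn in LPC-Contra minus Sham-Ipsil) cross 0.

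Between the sides of the LPC model and between the injuries, no member was called. In LPC-Ipsil minus LPC-Contra the log2 fold changes ran from -0.55 (Gpr6) to -0.19 (Pdyn), 0 of 9 genes and 0% of all tested genes passed edgeR's test, and 2036 tested genes but 0 of the 9 had an unadjusted p under 0.05. All 9 overlapped between the sides, where 13.7% of all tested genes did not. The median of -0.43 was -0.24 without LPC-Contra 2, -0.25 without LPC-Ipsil 3 and -0.68 without LPC-Contra 3. In LNIO-Ipsil minus LPC-Ipsil the median was -0.85, with 0 of 9 genes and 0% of all tested genes passing; 1409 tested genes had an unadjusted p under 0.05. Of the 9 genes Pdyn did, with an unadjusted p of 0.0338 from edgeR and an adjusted p = 0.572. Drd1, Tac1 and Pdyn did not overlap between those groups, as 13.7% of all tested genes did not. In Pdyn the LNIO-Ipsil libraries held 13.6, 17.3 and 18.1 CPM, against 26.2, 35.9 and 21.2 CPM in the LPC-Ipsil libraries. That median of -0.85 was -0.98 without LPC-Ipsil 3, -0.53 without LNIO-Ipsil 1 and -1.36 without LNIO-Ipsil 2. The contralateral sides, LNIO-Contra minus LPC-Contra, had a median of -0.44 with 0 of 9 genes and 0% of all tested genes passing (576 tested genes and 0 of the 9 at an unadjusted p under 0.05), and 0 of 9 did not overlap, beside 8.56% of all tested genes. It was -0.26 without LPC-Contra 2, -0.71 without LPC-Contra 3 and -0.68 without LNIO-Contra 2. The difference between the 2 models in their side difference had a median of -0.38 over the 9 genes, and 0 of 9 genes and 0% of all tested genes passed (171 tested genes and 0 of the 9 at an unadjusted p under 0.05). Its median was -0.57 without LPC-Ipsil 3, and over all single libraries left out it ran from -0.92 (LNIO-Ipsil 2) to -0.06 (LNIO-Ipsil 1).

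The sides of the L-NIO model gave calls under a block on the replicate number within the 6 L-NIO libraries, a setting added after the data were seen. The same block over all 15 libraries called 0 of the 9. Without pairing, LNIO-Ipsil minus LNIO-Contra had 0 of 9 genes and 0% of all tested genes passing edgeR's test, a median log2 fold change of -0.80 and a smallest adjusted p of 0.856 (Tac1); 1021 tested genes and 0 of the 9 had an unadjusted p under 0.05. The median was -0.47 without LNIO-Ipsil 1, -1.40 without LNIO-Ipsil 2 and -0.52 without LNIO-Contra 2. Tac1 and Penk, 2 of the 9, did not overlap between these sides, as 13.1% of all tested genes did not. In the same-numbered libraries, which deviated together across genes, Drd1 stood at 23.7 CPM in LNIO-Ipsil 1 and 50.9 CPM in LNIO-Contra 1, 65.0 CPM in LNIO-Ipsil 2 and 105.8 CPM in LNIO-Contra 2, and 40.2 CPM in LNIO-Ipsil 3 and 72.5 CPM in LNIO-Contra 3. The injured side was lower for 8, 9 and 9 of the 9 genes in pairs 1, 2 and 3, with median log2 differences of -1.58, -0.57 and -0.85. Pdyn in pair 1 was the exception, at 13.6 CPM in LNIO-Ipsil 1 and 13.5 CPM in LNIO-Contra 1. The share of all tested genes lower in each pair is not given here. In the fit blocked on the number, 8498 of 16196 tested genes had a log2 fold change under 0. The 9 genes varied together over the libraries, so their agreement does not count as 9 separate observations.

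With the number as a block among the 6 L-NIO libraries, Drd1, Tac1 and Gpr6 passed the test as lower on the injured side, 3 of 9 genes, where 4.22% of 16196 tested genes passed edgeR's test and 0.537% passed as lower. Drd1 had a log2 fold change of -0.87 ± 0.11 (SE; adjusted p = 7.91e-05), Tac1 of -0.83 ± 0.12 (adjusted p = 0.000259) and Gpr6 of -0.99 ± 0.17 (adjusted p = 0.00173). The other 6 had -1.08 (Penk) to -0.37 (Pdyn), with adjusted p from 0.104 to 0.393. The block was chosen because libraries of the same number varied together in these data, so these p-values depend on that choice. Penk, with the largest fitted fold change of the 9, differed between the sides by -1.79, -0.51 and -0.98 on the log2 scale in pairs 1, 2 and 3. Pair 1 held the libraries with the highest mitochondrial shares, 15.9% in LNIO-Ipsil 1 and 13.7% in LNIO-Contra 1. Leaving out pair 1, 2 or 3 gave 7, 6 or 8 called genes of the 9. These fits rest on fewer libraries, and the share of all tested genes called in them is not given here. The counts therefore have no background beside them and do not show a stronger difference. When library sizes were replaced by the summed counts of 18 other striatal genes in this blocked comparison, 0 of the 9 were called (smallest adjusted p of 0.131 from edgeR). Those 18 genes were themselves lower on the injured side (median log2 fold change -0.70), so this scaling takes out any difference they share with the 9. With pan-neuronal counts as the library size 3 were called. The share of all tested genes called under either scaling is not given here. In bulk tissue, fewer cells of a type and less RNA per cell cannot be told apart.

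**Figure D3:**
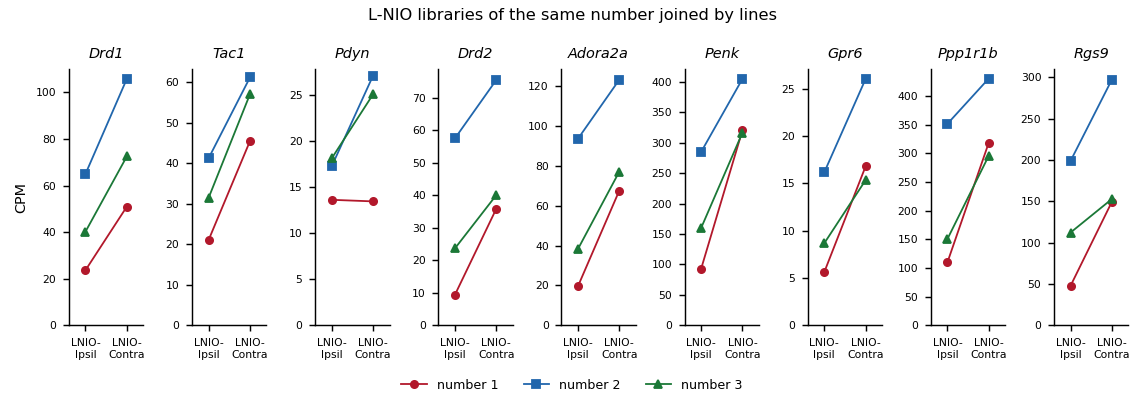
Level of each gene in CPM (vertical axes from 0, each gene on its own scale) in LNIO-Ipsil, left, and LNIO-Contra, right, with a line joining libraries of the same number. The left end of each line is below its right end except for Pdyn in pair 1 (13.6 and 13.5 CPM), and pair 2 lies above pairs 1 and 3 in all panels but that of Pdyn.

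Other striatal genes were called lower in that blocked comparison as well. Of 18 genes enriched in both kinds of projection neuron, 9 were called lower, 0 higher and 18 of 18 had a log2 fold change under 0 (median -0.70, beside -0.01 over all tested genes). Among them were Pde1b, a calcium-activated phosphodiesterase, at -0.71 ± 0.13 (SE; adjusted p = 0.00443 from edgeR), Adcy5, the main striatal adenylyl cyclase, at -0.65 ± 0.13 (adjusted p = 0.00559), the retinoic acid receptor Rarb at -0.93 ± 0.18 (adjusted p = 0.00609) and Gnal, the G protein that couples Drd1 and Adora2a to it, at -0.54 ± 0.11 (adjusted p = 0.00708). The direct-pathway list had 1 of 6 called lower, Slc35d3, and the indirect-pathway list 1 of 5, the orphan receptor Gpr52. In the chain around DARPP-32, 2 of 12 tested genes fell, the cyclic AMP phosphodiesterase Pde7b (-0.64 ± 0.10) and Gnb5 (-0.50 ± 0.10), the partner of Rgs9. Of 12 peptide-processing enzymes and peptide receptors, Oprk1, the receptor for dynorphin, fell by 0.77 on the log2 scale and Scg2, a granin of secretory granules, fell by 0.39. Slc32a1, the vesicular GABA transporter, was the 1 of 3 GABA genes to fall. Of 11 pan-neuronal genes 0 were called and 10 had a log2 fold change under 0 (median -0.20), of 9 interneuron genes 0 and 7 (median -0.12), of 12 cortical excitatory genes 1 (Tle4, lower) and 8 (median -0.08), and of 12 myelin genes 0 and 12 (median -0.20). The difference between these lists and the striatal ones was not tested. Of 10 damage-associated microglial genes 9 were called higher. In the same 6 libraries the microglial sum was 2589, 3473 and 1772 CPM in LNIO-Ipsil, against 1218, 1086 and 1080 CPM in LNIO-Contra, while the pan-neuronal sum was 6448, 6288 and 5744 CPM in LNIO-Ipsil, against 7107, 6606 and 6996 CPM in LNIO-Contra. Their part in the striatal difference was not tested.

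In LPC-Ipsil minus Sham-Ipsil no gene of the other striatal lists was called, where 5.19% of all tested genes were. Of the 18 other striatal genes 0 were called (median 0.28), of 6 direct-pathway genes 0, of 5 indirect-pathway genes 0 and of 12 genes of the DARPP-32 chain 0. Of 12 peptide-processing and peptide receptor genes, 3 fell, which were Scg2 at -0.55 ± 0.11 (SE; adjusted p = 0.0243 from edgeR), Scg5 at -0.61 ± 0.16 (adjusted p = 0.036) and Pcsk1, the proprotein convertase that cleaves peptide precursors, at -0.78 ± 0.21 (adjusted p = 0.0479). These are made by many neurons besides striatal ones. Cortical Neurod6 (-1.50 ± 0.34), septal Trpc4 (-1.03 ± 0.26) and pan-neuronal Nefl (-0.57 ± 0.16) fell too, each the 1 called gene of its list of 12, 5 and 11. The neuroblast list had 1 of 7 called, Sox11, which rose by 0.66 ± 0.16 (adjusted p = 0.0307). On the uninjected side, LPC-Contra minus Sham-Ipsil gave -1.09 for Trpc4, -0.98 for Neurod6 and 0.56 for Sox11. It gave -0.11 for Nefl, 0.11 for Scg2, -0.19 for Scg5 and -0.27 for Pcsk1. Between the sides, LPC-Ipsil minus LPC-Contra gave 0.06 for Trpc4, -0.52 for Neurod6 and 0.10 for Sox11. There Nefl had -0.46, Scg2 -0.66, Scg5 -0.42 and Pcsk1 -0.51. None of these was called. Whether these lists differ from the striatal ones was not tested. In LPC-Ipsil minus Sham-Ipsil 8 of 10 damage-associated microglial genes and 5 of 7 reactive astrocyte genes were called higher. Without LPC-Ipsil 3, 9.62% of all tested genes were called. The striatal, direct-pathway and indirect-pathway lists still had 0 calls, 10 of 10 microglial and 7 of 7 astrocyte genes were called higher, and 4 of 11 pan-neuronal, 2 of 9 interneuron, 2 of 12 cortical and 1 of 12 DARPP-32 chain genes were called lower. Pcsk1 then had an adjusted p = 0.0768 from edgeR, while Scg2, Scg5, Neurod6, Trpc4, Nefl and Sox11 were called. Every one of these list calls was lost without LPC-Ipsil 1, without LPC-Ipsil 2 and without each of the 3 Sham-Ipsil libraries, where at most 1 of all tested genes passed. Over the 15 settings with 1 library left out, most list genes, such as Scg2, were called in 10. Scg5 and Sox11 were called in 9 each, Nefl in 5, Pcsk1 in 2, and the microglial genes Spp1 and Gpnmb in 1 each. The calls of these genes were also lost without some library outside this comparison. For Scg5 it was LNIO-Ipsil 3 and for Sox11 it was LNIO-Contra 3. Of the other settings run in this comparison, pan-neuronal counts as the library size brought 1 member past edgeR's threshold. This was Pdyn at a log2 fold change of 1.06 (adjusted p = 0.0466), where 3462 of the 16795 tested genes passed. Without LPC-Ipsil 3 it had 1.27 (adjusted p = 0.0212), and the share of all tested genes called there is not given here. The mean pan-neuronal sum was itself lower in LPC-Ipsil (5401 CPM) than in Sham-Ipsil (6931 CPM), so this scaling raises the log2 fold changes.

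Across the 15 libraries the 9 genes varied together, and the 18 other striatal genes varied with them. The summed level spanned 7.55-fold for the 9 genes and 4.53-fold for the 18, from Sham-Ipsil 1 (1336 CPM) to LPC-Contra 1 (6054 CPM). The span was 1.62-fold for 12 cortical excitatory genes, 1.60-fold for 11 pan-neuronal genes and 1.61-fold for 9 interneuron genes. The ratio of the 9 to the 18 spanned 2.15-fold, and the ratio of the 9 to the pan-neuronal genes 7.61-fold. Microglial damage genes spanned 5.49-fold in another order of libraries: they were 994, 1006 and 983 CPM in Sham-Ipsil 1, 2 and 3, in which the 9 genes summed to 276, 1039 and 1612 CPM. LPC-Ipsil 1 held the most, 5396 CPM, with a sum over the 9 genes of 1293 CPM. The septal list was 52.6, 61.3 and 46.2 CPM in Sham-Ipsil 1, 2 and 3, and over all libraries it ran from 24.5 CPM in LNIO-Contra 3 to 63.9 CPM in LNIO-Ipsil 1, in which the 9 genes summed to 1052 and 343 CPM. How much neighbouring striatum each dissected piece contained is not given in the labels, and its part in these values was not tested.

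**Figure D4:**
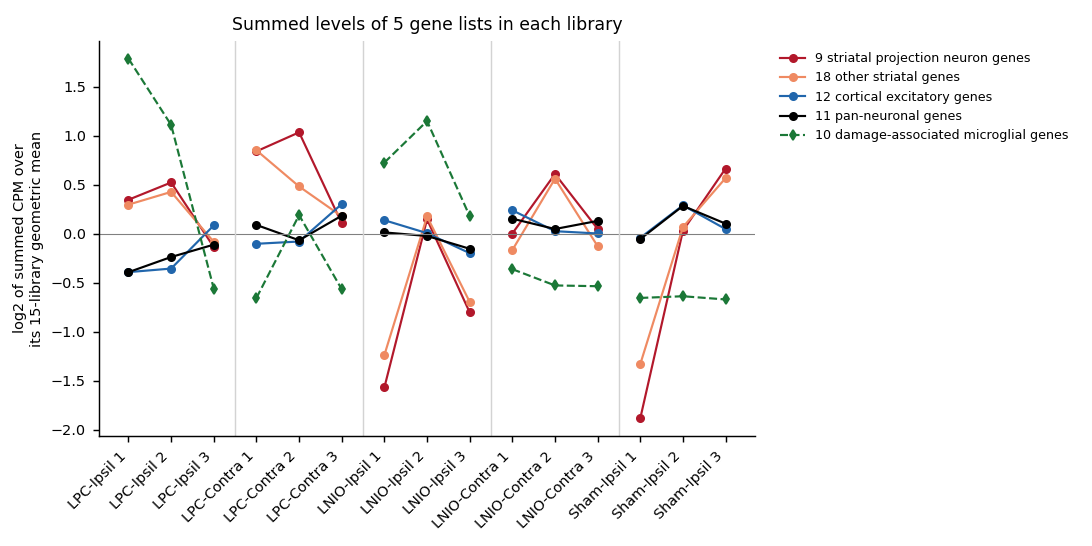
Summed CPM of 5 gene lists in each library, as log2 of the ratio to the geometric mean over the 15 libraries, with vertical lines between groups. The 9 genes and the 18 other striatal genes dip together in LNIO-Ipsil 1 and Sham-Ipsil 1 (343 and 276 CPM for the 9 genes), while the cortical and pan-neuronal lists stay within a 1.62-fold and a 1.60-fold span and the microglial list peaks in LPC-Ipsil 1.

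Likeness was measured as Pearson's r, over the 15 libraries, between the log2 CPM of a gene and the mean standardised profile of the 9 genes. The libraries fall into 5 groups, differ in depth, and their dissection is not given, so r is a description. Each of 8 members had r of at least 0.975 with the mean of the other 8, and Pdyn had 0.849. Among the genes most like the profile that were not members, Serpina9 came first (r = 0.987), and others were Pde1b (0.986), Six3 (0.982), a transcription factor of indirect-pathway neurons, Actn2 (0.981), Slc35d3 (0.980), Meis2 (0.973), Arpp21 (0.973), a protein kinase A substrate, Kcnj4 (0.972) and Plppr1 (0.971). Six3 ran from 2.75 to 26.4 CPM. The median r was 0.957 for the 18 other striatal genes, of which 15 were among the 100 genes most like the profile, and 0.02 for all tested genes outside the members. It was 0.853 for the direct-pathway list, 0.842 for the indirect-pathway list, 0.455 for the DARPP-32 chain and 0.203 for peptide processing and receptors. Cortical excitatory genes had a median r of -0.34, pan-neuronal genes 0.15 and damage-associated microglial genes -0.10. Within the interneuron list Chat, which makes acetylcholine, had r = 0.931, and within the septal list Lhx8, a factor of cholinergic neurons, had 0.939; these 2 were picked out after their values were seen, and Lhx8 did not exceed 1.98 CPM.

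**Figure D5:**
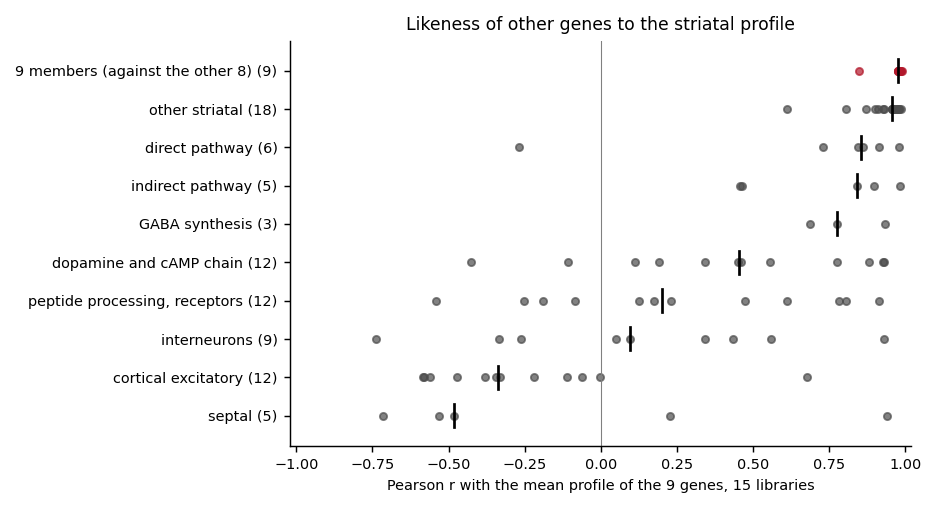
Pearson's r over 15 libraries (horizontal axis) between each gene and the mean profile of the 9 genes, by gene list with the number of tested genes in brackets and a black bar at the median. Points of the other striatal list crowd at the right (median 0.957), while cortical excitatory and septal genes lie mostly left of 0, with Lhx8 (0.939) and Crhr2 (0.226) the septal genes right of it.

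Ratios between members differed between libraries, including the 2 that held least of the 9 genes. Drd2 over Drd1 was 0.395 in LNIO-Ipsil 1 and 0.443 in Sham-Ipsil 1, against a median of 0.713 over 15 libraries and 1 in LPC-Ipsil 1, where both genes had 1156 reads. Penk over Tac1, an indirect-pathway against a direct-pathway peptide, was 4.41 in LNIO-Ipsil 1 and 4.05 in Sham-Ipsil 1, against a median of 6.63. Adora2a over Drd2, both of the indirect pathway, spanned 1.32-fold over all 15 libraries (1.59 to 2.10). Pdyn over Drd1, both of the direct pathway, was 0.576 in LNIO-Ipsil 1 and 0.519 in Sham-Ipsil 1, against a median of 0.316. Rgs9 over Ppp1r1b, both shared by the pathways, was 0.435 in LNIO-Ipsil 1, the lowest of the 15, and 0.687 in Sham-Ipsil 1, against a median of 0.589. These ratios are of counts and carry no length correction.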

How the data were processed

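The 9 genes and the gene lists were chosen with earlier results of these data known. Per the labels' protocols, ribosomal RNA was depleted and poly(A) RNA purified before paired-end sequencing. Per the submitters' processing notes, HISAT2 2.2.1 and R 4.4.2 were used with the build GRCm39. No source used here gives the counting program or its strand setting. The deposited counts are whole reads per gene symbol, and the deposited FPKM values are the authors' length-scaled levels of the same genes. Ppp1r1b overlaps the RNA gene 1700003D09Rik, which had at most 126 counts in a library. Drd2 overlaps the RNA gene Gm46111, which is absent from the deposited counts, so any reads of it were not counted apart.

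Counts were tested with edgeR 4.0.16 (R 4.3.3; quasi-likelihood test, robust, TMM scaling, filterByExpr with a minimum count of 10), a mean per group over all 15 libraries, and Benjamini-Hochberg adjustment over 16795 genes. SE is the absolute log2 fold change over the root of F. In data simulated over 15 libraries, median estimates came close to the changes that were set. The spread in that simulation followed the trend over all genes, not that of the 9, and the block within the L-NIO libraries was not simulated. Named genes are the 9, up to 4 genes of each list by smallest p in a comparison, and the 10 most like the 9, of which 1 is not reported here. Other settings used DESeq2 1.42.0, limma 3.58.1 on log2(FPKM + 0.1) and log2(FPKM + 1), no filter, only the groups compared, other library sizes, and single libraries left out.

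Whether numbers pair libraries was checked by the correlation of deviations from group means over 16795 genes. It was 0.60, 0.36 and 0.25 between LNIO-Ipsil and LNIO-Contra libraries of the same number, all over 0.1, and -0.04, 0.16 and 0.33 between the LPC sides. Pairing was therefore used for the L-NIO sides. It comes from the data, since no label says that a number marks a shared mouse. Every pair of groups was checked in this way, and no other had all its values over 0.1. The p-values of the blocked comparison depend on this choice. Replicates differed by a chi-square per degree of freedom of 10.1 to 63.7, so none was a repeat deposit.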

Additional observations from a re-analysis of the deposited data

How the results depend on the processing

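In all 9 comparisons 0 of the 9 genes were called with DESeq2, with its size factors in edgeR, without the filter, with only the groups compared, with limma on either FPKM scale, with the replicate number as a block over all 15 libraries, and without each library in turn (0 to 0). In the main edgeR fit at most 5.19% of all tested genes passed in any of these comparisons, and 0% in most of them. Shares of all tested genes are given here for few of the other settings, so 0 of 9 is not a result particular to these genes. Scaling to pan-neuronal counts gave 1 call in LPC-Ipsil minus Sham-Ipsil, and 1 without LPC-Ipsil 3, a setting added after seeing the data. Pan-neuronal genes were themselves lower in LPC-Ipsil than in Sham-Ipsil, so this scaling raises log2 fold changes there. In LNIO-Ipsil minus LNIO-Contra the replicate block within the L-NIO libraries, a setting added after seeing the data, gave 3 calls, 3 with pan-neuronal scaling, 7, 6 and 8 without pair 1, 2 and 3, and 0 with scaling to the 18 other striatal genes; the block changed no other call. The share of all tested genes called without a pair is not given here, so those counts have no background beside them. The 18 genes were themselves lower in the blocked comparison, so scaling to them takes out a difference that they share with the 9. The cause of these differences in calls was not tested.

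Directions turned, with no call, in these cases. Under pan-neuronal scaling the log2 fold change of Pdyn was 0.11 in LNIO-Ipsil minus Sham-Ipsil and 0.11 in LPC-Ipsil minus LPC-Contra. Scaling to other striatal counts gave, in LNIO-Ipsil minus Sham-Ipsil, 0.0011 for Drd1, 0.057 for Ppp1r1b, 0.14 for Tac1, 0.36 for Pdyn and 0.0070 for Gpr6. It gave Pdyn 0.10 in LPC-Ipsil minus LPC-Contra, 0.33 in LNIO-Ipsil minus LNIO-Contra (0.29 with the block), 0.12 in LNIO-Ipsil minus LPC-Ipsil and 0.23 in the interaction, and Tac1 0.031 in LNIO-Ipsil minus LPC-Ipsil. In LNIO-Contra minus LPC-Contra it gave Drd1 0.046, Tac1 0.064 and Gpr6 0.015. This scaling moves the median of all tested genes by -0.89 to 0.85.

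Leaving out 1 library turned other directions, none of them called. The lowest and highest log2 fold changes of the genes concerned are given by comparison. In LPC-Ipsil minus Sham-Ipsil they were Drd1 -0.043 to 0.79, Drd2 -0.046 to 1.11, Adora2a -0.15 to 1.005, Ppp1r1b -0.12 to 0.81, Penk -0.19 to 0.82, Rgs9 -0.055 to 0.90 and Gpr6 -0.15 to 0.85. In LNIO-Ipsil minus Sham-Ipsil they were Drd2 -1.44 to 0.10, Ppp1r1b -1.06 to 0.087, Tac1 -0.71 to 0.053, Pdyn -0.33 to 0.13, Rgs9 -1.06 to 0.055 and Gpr6 -0.99 to 0.095. In LNIO-Contra minus Sham-Ipsil they were Drd1 -0.068 to 0.82, Drd2 -0.34 to 0.88, Adora2a -0.37 to 0.84, Ppp1r1b -0.099 to 0.89, Penk -0.11 to 0.97, Rgs9 -0.19 to 0.83 and Gpr6 -0.0029 to 1.06. In LPC-Ipsil minus LPC-Contra they were Pdyn -0.46 to 0.0049. In the interaction they were Drd2 -1.27 to 0.035, Adora2a -1.17 to 0.026, Ppp1r1b -0.94 to 0.0202, Pdyn -0.44 to 0.058 and Rgs9 -0.94 to 0.032.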
